A study of Homo sapiens with 6 samples.

Results

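The PARP genes share an ADP-ribosyltransferase domain, which in active members transfers ADP-ribose from NAD+ onto proteins. DTX3L is the ubiquitin ligase that forms a complex with PARP9. Genes of the deposited table named PARP followed by a number, and DTX3L, were taken as members, which gave 8 of its 2885 genes: PARP4, PARP8, PARP9, PARP10, PARP11, PARP12, PARP14 and DTX3L. PARP9, PARP10, PARP11, PARP12, PARP14 and DTX3L are known to be induced by interferon in other cell systems and form a group of 6; PARP4 and PARP8 form the rest. The table had no row for PARP1, PARP2, PARP3, PARP6, PARP15 or PARP16, which are not analysed here.

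Total RNA of RKO, a cell line established from a human colorectal carcinoma, had been sequenced in 6 libraries. The 3 control libraries carry the treatment label ShNC and a wild-type genotype, and the other 3 the treatment label shKMT5A and the genotype KMT5A knockdown. No further allele, agent or time is given for either group. KMT5A is a histone H4 lysine 20 methyltransferase, and the series title links it to methylation of IRF3, a transcription factor of the interferon response, and to immune suppression. Which hairpin sequences were used, and whether libraries came from separate cultures, is not given in the labels, so the spread behind each p-value is that of the libraries and may be technical only.

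Most members are mono-ADP-ribosyltransferases, which attach a single ADP-ribose unit, unlike PARP1 and PARP2, which build chains at DNA breaks. In the interferon response, signalling through JAK kinases activates transcription factor complexes, some of which hold STAT2 and IRF9. These bind interferon-stimulated response elements (ISRE), and gamma-activated sequences (GAS) are bound in the response to interferon gamma. Several interferon-inducible PARP proteins restrict viruses or modify signalling proteins, and macrodomains, found in PARP9 and PARP14 as well as in some viruses, bind or remove ADP-ribose.

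KMT5A itself was higher, not lower, in the libraries labelled shKMT5A. Its normalized read counts were 1298, 1245 and 1307 in shNC and 4015, 3898 and 3297 in shKMT5A, a log2 fold change of 1.54 (standard error, SE, 0.075; limma, adjusted p = 1.00e-08). Directions below are therefore those of the libraries labelled shKMT5A, not of lower KMT5A transcript. Whether labels or columns were exchanged between the groups was not tested, and an exchange would turn every direction given here. Every gene in the authors' deposited table had been selected, with a log2 fold change of at least 1 in size and an adjusted p under 0.05 there. Its genes held 1363382 to 1369655 reads per shNC library, with 1891460 in shKMT5A replicate 1 and 1906015 in replicate 2, while the full depth of the libraries is unknown. Of 12 colon epithelial markers the table held 6, which summed to 144335 to 157172 normalized counts in shNC and 45798 to 47267 in shKMT5A. KRT8, KRT18 and KRT19 made up nearly all of that sum and were lower (KRT8 0.262-fold), while AGR2, MUC2 and CDH17, at low counts, were higher, and EPCAM and CDX2 had no row. Of 10 leukocyte markers 4 were in the table, with a summed level of 489 to 548 in shNC and 114 to 139 in shKMT5A. That sum was mostly CORO1A, which was lower with GZMB and CD79A, while CD8A was higher (0.638 and 13.2), and PTPRC, the general leukocyte marker, had no row. Markers of fibroblasts and endothelium, 6 found of 10, summed to 172 to 181 and 95.3 to 121. LUM, DCN and TEK were lower and COL3A1, ACTA2 and CDH5 higher, with DCN at 0 in all shKMT5A libraries and CDH5 at 0 in all shNC libraries. The part of these markers in the results below was not tested. In bulk RNA a change in the number of cells of a type and a change in RNA per cell cannot be told apart.

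PARP9, DTX3L and PARP14 lie near each other on chromosome 3, and the promoter sequences are shown here because they and that of PARP12 hold a motif of the interferon response. PARP9 (ENSG00000138496, 122527924 to 122564577, minus strand) and DTX3L (ENSG00000163840, 122564238 to 122575203, plus strand) are arranged head to head in GRCh38, and PARP14 (ENSG00000173193, 122680618 to 122730840, plus strand) follows downstream of DTX3L, beyond PARP15. RefSeq promoter windows (GRCh38.p14), from 250 bases before to 50 bases after an annotated start, were found for 6 of the 8 members, with 9 windows in all; PARP4 and PARP10 had none to show. Both strands were searched for ISRE, spelled GAAA, any 2 bases and GAAA, and for GAS, spelled TTCNNNGAA, where N is any base. An ISRE match lay in 4 of the 9 windows, those of DTX3L, PARP14 and PARP12 and 1 of the 2 windows of PARP9, and among all 35116 windows 3.57% held a match. The DTX3L and PARP9 matches are the same bases, since the annotated starts of these divergent genes are 38 bases apart, so the matches lie at 3 distinct positions. With 10 bases on either side and the match in capitals, read on the strand that spells the motif, they are as follows.

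DTX3L and PARP9 (chr3, match at 122564332 to 122564341): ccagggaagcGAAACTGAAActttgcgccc

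PARP14 (chr3, match at 122680810 to 122680819): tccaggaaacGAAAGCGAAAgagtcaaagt

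PARP12 (chr7, match at 140062952 to 140062961): ggcgggaaacGAAACCGAAAgcggccccgg

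Counted with the annotated start as 0, the shared match spans -6 to 3 for DTX3L and -41 to -32 for PARP9, that of PARP14 spans -29 to -20 and that of PARP12 -10 to -1. A GAS match lay in 1 member window, that of PARP14, at -40 to -32, directly upstream of its ISRE match and not overlapping it; 7.66% of all windows held a GAS match. The windows of PARP11 and the 3 windows of PARP8 held neither, which says only that these letters are not in these windows. Among windows of genes called higher, 8.20% held an ISRE match, against 2.05% of windows of genes called lower, where some genes have several windows. Whole windows follow for the 3 distinct matches and for 1 window of PARP8, a member that rose without a match; capitals mark ISRE and GAS matches, and each sequence runs 5′ to 3′ on its gene's strand, so that the PARP12 match, which is spelled on the other strand, appears as its reverse complement.

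DTX3L (chr3:122564088-122564387, plus strand): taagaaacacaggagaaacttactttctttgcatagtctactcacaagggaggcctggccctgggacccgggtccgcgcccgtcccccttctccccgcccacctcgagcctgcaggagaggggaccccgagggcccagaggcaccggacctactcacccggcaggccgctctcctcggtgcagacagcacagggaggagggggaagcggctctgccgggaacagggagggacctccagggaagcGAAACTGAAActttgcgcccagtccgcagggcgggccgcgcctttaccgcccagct

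PARP14 (chr3:122680589-122680888, plus strand): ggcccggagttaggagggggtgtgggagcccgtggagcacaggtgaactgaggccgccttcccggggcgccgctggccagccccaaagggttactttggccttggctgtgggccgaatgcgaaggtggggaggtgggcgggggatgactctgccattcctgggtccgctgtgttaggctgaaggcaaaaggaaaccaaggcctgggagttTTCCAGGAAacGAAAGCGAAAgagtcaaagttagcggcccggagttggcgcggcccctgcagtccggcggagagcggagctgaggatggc

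PARP12 (chr7:140062902-140063201, minus strand): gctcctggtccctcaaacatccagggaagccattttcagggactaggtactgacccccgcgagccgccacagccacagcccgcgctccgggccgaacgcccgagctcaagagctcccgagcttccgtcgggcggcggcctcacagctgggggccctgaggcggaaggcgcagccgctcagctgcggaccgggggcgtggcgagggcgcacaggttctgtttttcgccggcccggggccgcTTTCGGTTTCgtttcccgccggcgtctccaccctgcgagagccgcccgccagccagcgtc

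PARP8 (chr5:50666387-50666686, plus strand, no match): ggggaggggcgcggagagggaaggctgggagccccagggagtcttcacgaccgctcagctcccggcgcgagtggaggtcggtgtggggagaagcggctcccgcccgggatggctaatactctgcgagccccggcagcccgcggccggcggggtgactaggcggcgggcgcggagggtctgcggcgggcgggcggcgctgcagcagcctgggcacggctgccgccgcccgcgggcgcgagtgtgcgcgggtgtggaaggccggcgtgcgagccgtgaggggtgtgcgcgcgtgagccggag

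**Figure D1:**
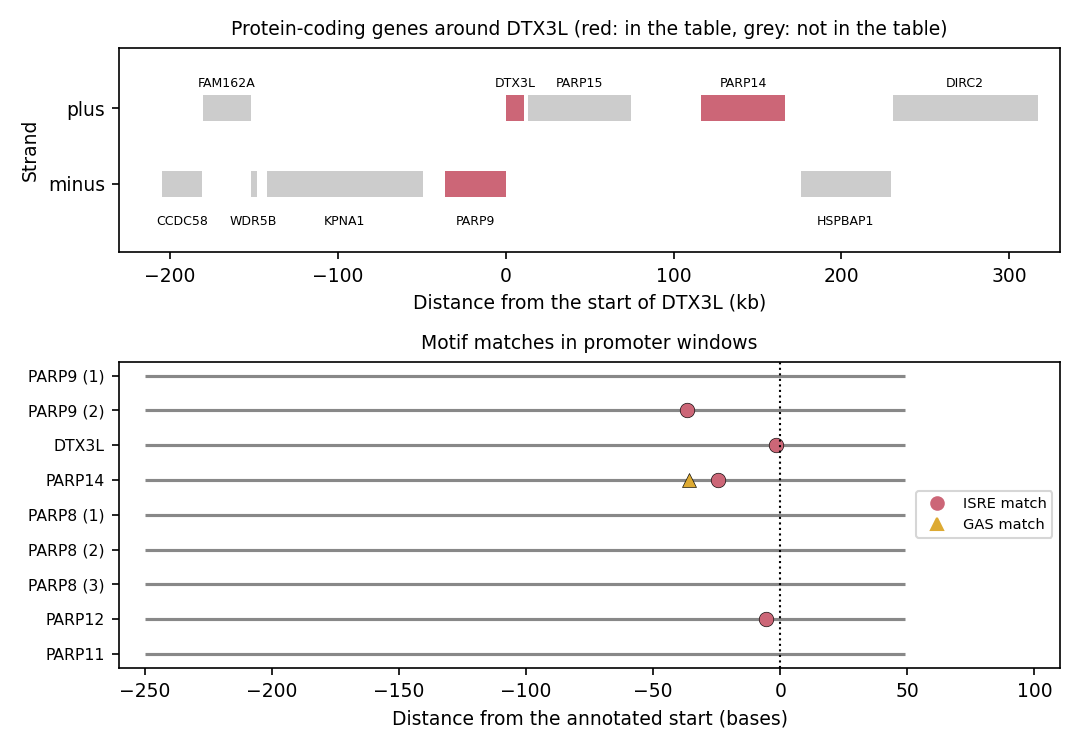
Upper panel, protein-coding genes of GENCODE 29 around DTX3L, by distance from its start in kb and by strand, with genes of the table in red and others in grey. Lower panel, ISRE (circles) and GAS (triangles) matches in the promoter windows of 6 members, by distance from the annotated start in bases (several windows of a gene are numbered). PARP9, DTX3L and PARP14 are the red genes, and matches lie just before or across a start.

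All 8 members were higher in the libraries labelled shKMT5A. With limma on log2(normalized count + 1) and Benjamini-Hochberg adjustment over all 2885 genes, 8 of 8 passed an adjusted p of 0.05 as higher, where 57.4% of the table's genes did so. The groups did not overlap for any member, as for 57.2% of the table's genes in that direction; 42.6% of its genes were called lower. These shares follow from the authors' selection, so the count says little beyond the direction. The same holds for each adjusted p given here. It comes from the libraries in which the genes had been selected, and its adjustment runs over selected genes only. It is therefore no independent support for a difference. The median log2 fold change of the members was 2.25, against 1.13 over the table and 1.81 over the genes called higher. Of the members 6 of 8 lay above the table's median, as did most genes called higher, whose values start at 0.952. Of the 8 members 5 were called with a log2 fold change above 2. So were 728 of the 1655 genes called higher, which is 25.2% of the table's genes. Since all 8 members were called higher, the 1655 genes are the nearer comparison. The members' count was 2 (PARP9 and PARP14) with TMM, totals or edgeR and 1 (PARP9) with DESeq2. The table's share was then 16.9% to 18.2% and 11.2%. An exact two-sided permutation test of normalized counts gave p = 0.1 for each member, the smallest that 3 against 3 libraries allow.

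**Figure D2:**
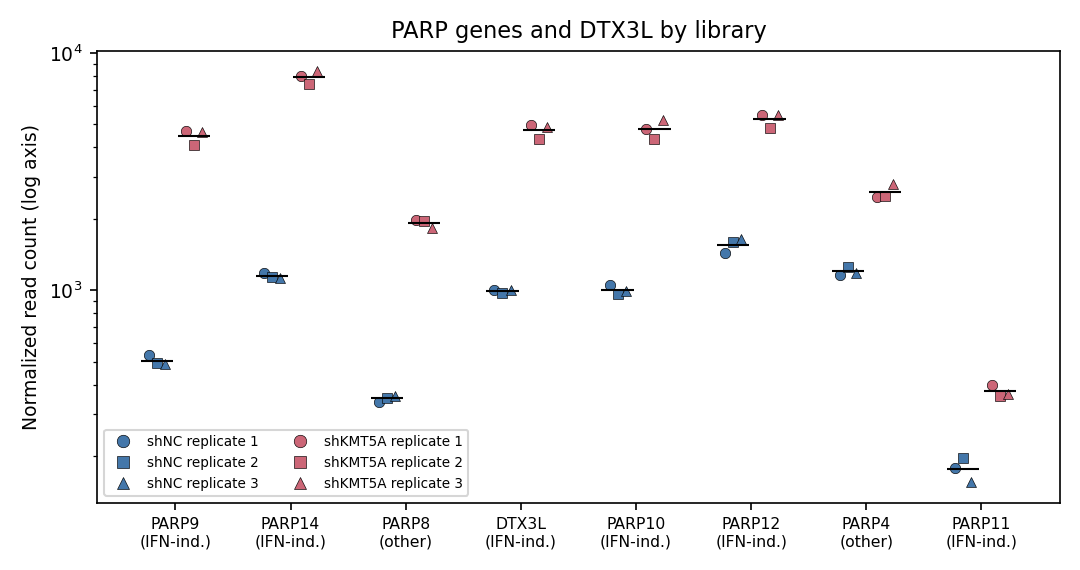
Normalized read counts (log axis) of the 8 members in each of the 6 libraries, with shNC in blue, shKMT5A in red, a symbol per replicate number and a line at each group mean. Every red point lies above every blue point of the same gene, and the gap is widest for PARP9 and narrowest for PARP11 and PARP4.

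PARP9, which carries macrodomains and acts with DTX3L, showed the largest difference of the members. Its normalized read counts were 535, 493 and 488 in shNC and 4705, 4096 and 4628 in shKMT5A. The groups were far apart, and shKMT5A replicate 2 was the lowest of its group. The means of 505 ± 26.1 and 4476 ± 332 (SD, n = 3 each) gave an 8.86-fold difference and a log2 fold change of 3.14 (SE 0.071; limma, adjusted p = 3.14e-11). That fold change ranked at place 265 of the 2885 genes.

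DTX3L, which ubiquitinates histones and other proteins and is bound by PARP9, rose by less than its partner. It had 1006, 977 and 1001 normalized read counts in shNC and 4994, 4331 and 4899 in shKMT5A. The shNC libraries lay within a narrow band, and replicate 2 was again the lowest of shKMT5A. From 995 ± 15.6 to 4741 ± 359 (SD, n = 3 each), the difference was 4.77-fold, with a log2 fold change of 2.25 (SE 0.064; limma, adjusted p = 1.77e-10). Exons of PARP9 and DTX3L overlap by 217 bases on opposite strands. The sources used here do not say if reads were counted by strand, so those from that stretch cannot be told apart.

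PARP14, a macrodomain protein with catalytic activity that is known as a cofactor of STAT6, had the highest count of the members in shKMT5A. In shNC it had 1181, 1143 and 1128 normalized read counts and in shKMT5A 7971, 7427 and 8379. The lowest shKMT5A library was several times above the highest shNC library. Means of 1151 ± 27.0 and 7925 ± 478 (SD, n = 3 each) differed 6.89-fold, a log2 fold change of 2.78 (SE 0.057; limma, adjusted p = 1.48e-11). No overlap with the exons of another annotated gene was found for PARP14. Measured between the lower coordinates of genes, whatever their strand, 13 other protein-coding genes lie within 500 kb of PARP9. The table held 2 of them, DTX3L and PARP14.

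PARP10, which inhibits replication of some RNA viruses and binds MYC, and PARP12, which contains zinc fingers and is found at the Golgi and in stress granules, were both higher in shKMT5A, by 4.77-fold and 3.39-fold. PARP10 (ENSG00000178685, chromosome 8, 143977153 to 144012772, minus strand) had 1050, 966 and 993 normalized read counts in shNC and 4789, 4350 and 5205 in shKMT5A. The means of 1003 ± 42.9 and 4781 ± 428 (SD, n = 3 each) gave a log2 fold change of 2.25, standard error 0.071 (limma, adjusted p = 3.89e-10), nearly that of DTX3L. Exons of PARP10 overlap by 324 bases with GRINA and by 197 bases with SPATC1 on the opposite strand, and neither was among the genes of the table. PARP12 (ENSG00000059378, chromosome 7, 140023744 to 140063721, minus strand) had 1432, 1601 and 1639 normalized read counts in shNC and 5503, 4854 and 5467 in shKMT5A. Of PARP12, the 3 shNC libraries were more spread than those of PARP9, DTX3L and PARP14, and the groups were still well separated. Its means of 1557 ± 110 and 5275 ± 365 (SD, n = 3 each) differed 3.39-fold, a log2 fold change of 1.76 (SE 0.070; limma, adjusted p = 2.16e-09).

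PARP11, a mono-ADP-ribosyltransferase of the nuclear envelope, was the least abundant member and had the smallest fold change in the main fit. PARP4 was nearly level with it and came last instead with edgeR, with DESeq2 and when some single libraries were left out. PARP11 (ENSG00000111224, chromosome 12, 3791047 to 3873448, minus strand) had 178, 196 and 155 normalized read counts in shNC and 400, 359 and 365 in shKMT5A. Its groups did not overlap, but the shNC libraries varied by more relative to their mean than those of any other member. The difference was 2.12-fold, with a log2 fold change of 1.09 (SE 0.109; limma, adjusted p = 2.98e-06).

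The members outside the interferon-inducible group differed from each other. PARP8 (ENSG00000151883, chromosome 5, 50665899 to 50846522, plus strand), a mono-ADP-ribosyltransferase whose function is little known, had 338, 353 and 359 normalized read counts in shNC and 1970, 1965 and 1829 in shKMT5A. With means of 350 ± 10.7 and 1922 ± 80.2 (SD, n = 3 each), a 5.49-fold difference, its log2 fold change of 2.45 (standard error 0.066; limma, adjusted p = 1.19e-10) was the third highest of the 8. It was above that of DTX3L, PARP10, PARP12 and PARP11, all interferon-inducible. PARP4 (ENSG00000102699, chromosome 13, 24420926 to 24512810, minus strand), a component of vault particles, had 1161, 1258 and 1187 normalized read counts in shNC and 2470, 2489 and 2805 in shKMT5A. Its 2.15-fold difference, a log2 fold change of 1.10 (SE 0.066; limma, adjusted p = 4.71e-08), was close to that of PARP11. The authors' deposited table lists log2 fold changes of 1.11 for PARP4 and 1.08 for PARP11, just inside its limit of 1. With DESeq2 on the reads of 5 libraries, which sets its own scaling over the preselected table, PARP4 and PARP11 did not pass (adjusted p = 0.931 and 0.725) and 27.2% of the table's genes were called higher.

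**Figure D3:**
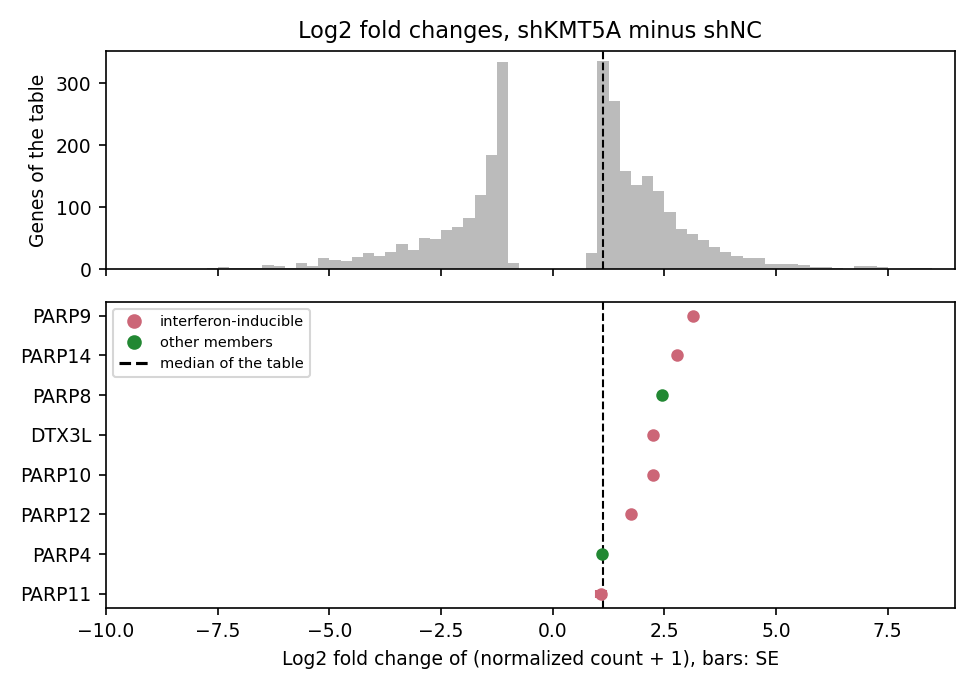
Upper panel, number of genes of the table by log2 fold change, shKMT5A minus shNC; the empty middle shows that the table holds selected genes. Lower panel, log2 fold change of each member with its standard error (interferon-inducible in red, other members in green), with a dashed line at the table's median of 1.13; PARP8 stands among the red points and PARP4 beside PARP11.

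To set levels of different genes side by side, counts were divided by the length of a gene's annotated exons, merged over its transcripts. This was 8938 bases over 7 transcripts for PARP9 and 5868 bases over 2 for DTX3L. The transcripts in use are not known and can be shorter, so the order and shares between genes hold for this length only. Summed over the 8 members, the level per kilobase was 1011 ± 10.4 normalized counts in shNC and 4373 ± 277 in shKMT5A (SD, n = 3 each), a 4.33-fold difference. That size holds for the authors' scaling only. The members' log2 fold changes ran from 1.09 to 3.14 in the main fit. They ran from 0.49 to 2.55 with TMM and from 0.0086 to 2.09 with DESeq2 on 5 libraries. In shNC the order of the levels per kilobase was PARP12 (248 ± 17.5), PARP4 (198 ± 8.27), DTX3L (170 ± 2.66), PARP10 (166 ± 7.11), PARP14 (110 ± 2.57), PARP9 (56.5 ± 2.92), PARP8 (34.8 ± 1.07) and PARP11 (28.5 ± 3.32). DTX3L and PARP10 overlapped between libraries in that order, and the other neighbours did not. In shKMT5A the 4 highest levels per kilobase, PARP12 (839 ± 58.0), DTX3L (808 ± 61.1), PARP10 (793 ± 70.9) and PARP14 (755 ± 45.5), overlapped from each to the next. PARP9 (501 ± 37.1) and PARP4 (426 ± 31.0) overlapped as well, and PARP8 (191 ± 7.97) and PARP11 (60.4 ± 3.56) stood apart below them.

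The make-up of the summed level shifted with these changes. As a share of the members' summed level per kilobase, PARP9 went from 5.59% ± 0.346 in shNC to 11.4% ± 0.277 in shKMT5A, and PARP14 from 10.9% ± 0.357 to 17.3% ± 0.255 (SD, n = 3 each). PARP4 went the other way, from 19.6% ± 0.650 to 9.74% ± 0.571, and PARP12 from 24.5% ± 1.52 to 19.2% ± 0.335. DTX3L and PARP10 held 16.8% ± 0.417 and 16.5% ± 0.876 in shNC and 18.5% ± 0.481 and 18.1% ± 0.614 in shKMT5A.

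**Figure D4:**
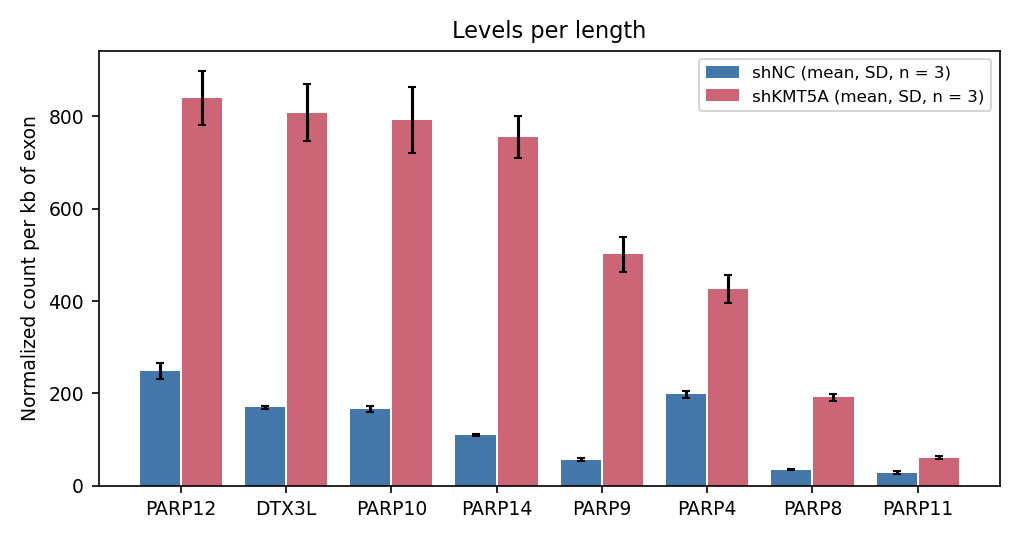
Mean normalized count per kb of exon of each member in shNC (blue) and shKMT5A (red); error bars are SD over 3 libraries. PARP4, the second highest member in shNC at 198, is sixth in shKMT5A at 426, below PARP14 at 755 and PARP9 at 501.

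Ratios between members within a library do not depend on how libraries are scaled. The ratio of PARP9 to DTX3L, partners in 1 complex, was 0.349, 0.331 and 0.320 per kilobase in shNC and 0.619, 0.621 and 0.620 in shKMT5A. Per kilobase of merged exons PARP9 was thus below DTX3L in every library, and the gap was smaller in shKMT5A. The size of the ratio depends on the lengths used, while its change does not if the same lengths hold in both groups. On the log2 scale the ratio rose by 0.89 with a standard error of 0.037, and the groups did not overlap (exact two-sided permutation test, p = 0.1, adjusted p = 0.112 over the pairs compared). Against PARP14, PARP9 went from 0.515 ± 0.0147 to 0.663 ± 0.0260 per kilobase (SD, n = 3 each), also without overlap. The ratio of DTX3L to PARP10 was 1.02 ± 0.0304 in shNC and 1.02 ± 0.0523 in shKMT5A. Its difference on the log2 scale was 0.00044 with a standard error of 0.0495 (exact permutation test, p = 1, adjusted p = 1).

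Of all 28 pairs of members, 25 had ratios that did not overlap between the groups (89.3%), as did 76.7% of all pairs of genes of the table. The pairs of the table include those of a higher and a lower gene, while all members were higher. The share among pairs of higher genes was not computed. The pairs that overlapped were DTX3L with PARP10, PARP8 with PARP10 (difference 0.20, standard error 0.121, exact permutation p = 0.3, adjusted p = 0.323) and PARP4 with PARP11 (difference 0.02, standard error 0.122, exact permutation p = 0.9, adjusted p = 0.933). Since 3 against 3 libraries cannot give an exact p under 0.1, no pair could pass a threshold of 0.05.

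**Figure D5:**
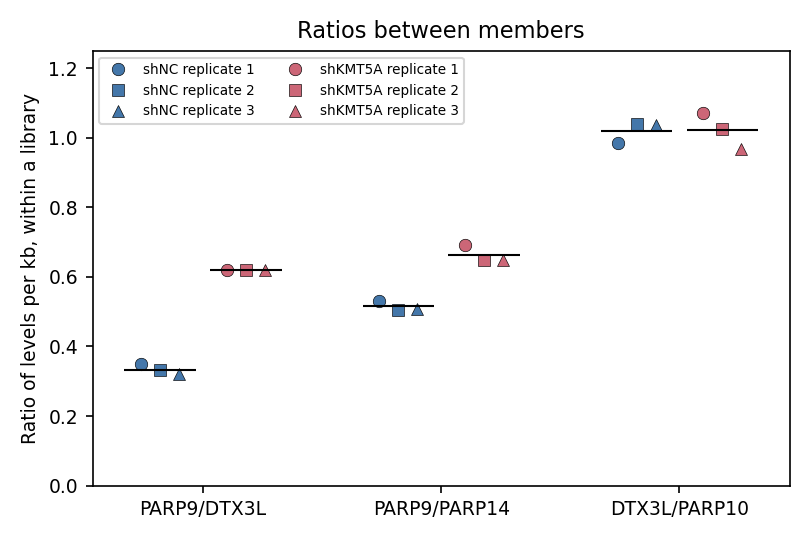
Ratio of levels per kb between members within each library for 3 pairs, with shNC in blue, shKMT5A in red, a symbol per replicate number and a line at each group mean. PARP9/DTX3L lies between 0.320 and 0.349 in shNC and between 0.619 and 0.621 in shKMT5A, while the groups overlap for DTX3L/PARP10.

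The interferon-inducible members shared their lowest library within the shKMT5A group. Replicate 2 was the lowest of its group for 6 of these 6 genes, by 6.01% (PARP11) to 13.0% (PARP10) below the mean of replicates 1 and 3, and also for 6 of 6 after scaling to the totals of the table. Among all genes called higher, replicate 2 was the lowest for 37.2%, and for 42.2% of those with a shKMT5A mean of at least 300 normalized counts. It was also the lowest for 5 of the 8 genes of interferon signalling in the table, which are not members. So it was for B2M, LAMP3 and IFIH1, but these were picked for their likeness to PARP9 over the same libraries, so this is partly built in. Of the genes picked likewise for PARP14, STAT2 and OPTN were lowest in replicate 2 and NFKBIZ in replicate 1. Replicate 2 was the lowest for neither PARP8, where it was 3.46% above the mean of the other replicates, nor PARP4, whose lowest library was replicate 1. In shNC the lowest library was replicate 1 for PARP12, PARP8 and PARP4, replicate 2 for DTX3L and PARP10, and replicate 3 for PARP9, PARP14 and PARP11.

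The genes whose profile over the 6 libraries was most like that of PARP9 were B2M, LAMP3 and IFIH1. Likeness was the root mean square difference of log2(normalized count + 1) after centring each gene, and it was 0.037, 0.054 and 0.069. B2M, which forms the small subunit of MHC class I molecules, had 474 ± 36.5 normalized counts in shNC and 4194 ± 160 in shKMT5A, LAMP3, a lysosomal membrane protein, went from 266 ± 5.56 to 2322 ± 233, and IFIH1, the RNA sensor MDA5, from 397 ± 33.7 to 3829 ± 311 (SD, n = 3 each). For PARP14 the closest genes were STAT2 (0.067), OPTN (0.067), an autophagy receptor, and NFKBIZ (0.068), a regulator of NF-kB. OPTN went from 736 ± 52.2 to 4775 ± 240 and NFKBIZ from 191 ± 7.89 to 1252 ± 92.1 normalized counts. The member closest to PARP9 was PARP14, at place 31 of all genes with 0.186, and DTX3L stood at place 244 with 0.449. With 2 groups of 3 this measure reflects mainly the size of the group difference.

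Genes of interferon signalling that were in the table rose together with the members. Of 20 list genes 8 were in the table, and 8 were higher and 0 lower, with a median log2 fold change of 2.59, also with IFNL1 at its lower bound. Of all genes in the preselected table, 57.4% were higher, and the median was 1.13. USP18, which removes ISG15 and dampens receptor signalling, went from 257 ± 15.2 to 2479 ± 293 normalized counts (SD, n = 3 each). STAT2 went from 694 ± 36.7 to 4544 ± 311 and IRF9 from 65.4 ± 9.14 to 418 ± 31.3. IFNL1, a type III interferon, was at 0 in all 3 shNC libraries and at 11.6 ± 3.19 normalized counts in shKMT5A. Taking 3 counts over the shNC group as the floor, which covers counting error only, it was at least 12.0-fold higher. IRF1 (log2 fold change 2.52, SE 0.073), IFNGR1 (1.92, SE 0.065), SOCS1 (1.70, SE 0.226) and IRF2 (1.09, SE 0.077) were also called higher by limma. IRF2 and SOCS1 did not pass with DESeq2 (adjusted p = 0.803 and 0.184).

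Other genes with an ADP-ribosyltransferase domain, partners and enzymes that remove ADP-ribose were mostly not among the genes of the table. Of 10 genes listed for such a domain under other names, ZC3HAV1, the antiviral zinc finger protein also called PARP13, was in the table. It was higher, with 1687 ± 60.0 and 4466 ± 171 normalized counts a 2.65-fold difference, which says nothing about transferase activity. Of 12 partners and readers 3 were in the table. DTX4, a relative of DTX3L, was lower (518 ± 43.6 and 254 ± 31.7), as was PARPBP, which binds PARP1 (147 ± 12.0 and 70.4 ± 9.36). APLF, a reader of ADP-ribose chains in DNA repair, was higher (31.4 ± 10.2 and 67.5 ± 12.9; log2 fold change 1.11, SE 0.259), a call lost with TMM or total scaling, edgeR and DESeq2 (adjusted p = 0.0531 to 0.832). Of 12 genes of ADP-ribose removal MACROD2, a macrodomain hydrolase, was in the table and was higher, with low counts of 20.0 ± 3.23 and 55.8 ± 9.88. The table held 0 of 14 genes of DNA break repair.

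Genes that make NAD+, the substrate of all PARP enzymes, moved both ways. Of 21 genes of NAD+ supply and use the table held 4, of which 3 were higher and QPRT was lower. NAMPT, the rate-limiting enzyme of NAD+ salvage, had 3489 ± 225 normalized counts in shNC and 13379 ± 1468 in shKMT5A (SD, n = 3 each), a log2 fold change of 1.94 with a standard error of 0.076. IDO1 and KYNU, which degrade tryptophan towards the precursors of NAD+, rose from 5.16 ± 4.93 to 288 ± 57.9 and from 3.54 ± 1.10 to 56.8 ± 12.3. QPRT, which turns that pathway's product quinolinate into a mononucleotide precursor of NAD+, went from 48.0 ± 14.1 to 1.67 ± 2.06 normalized counts, a log2 fold change of -4.46 with a standard error of 0.546 that rests on very few reads in shKMT5A.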

How the data were processed

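Libraries from RKO total RNA (6) were analysed from 1 deposited table. Per the submitters' processing notes, the tools were fastp, CASAVA 1.8, featureCounts 1.5.0-p3, HISAT2 2.0.5 and DESeq2 1.20.0. The build named there is GRCh38 (hg38). Columns were assigned to libraries by the treatment and number in their names. The deposited signal columns hold normalized read counts: within 0.001, 100% of entries in each library were multiples of a single step of 0.952 to 1.05, the worth of 1 read, so the authors applied 1 factor to each library. Log2 fold changes and p-values in the table are the authors' own. Positions of all 8 members matched GENCODE 29.

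The limma 3.58.1 test (R 4.3.3, statmod 1.5.0, with trend and robust options) was run on log2(value + 1) of every gene whose mean reached 1 normalized count, which all 2885 did, at a threshold of 0.05. Fold changes on this scale understate those of low genes. edgeR 4.0.16 (quasi-likelihood) and DESeq2 1.42.0 were run on whole reads of 5 libraries, leaving out shKMT5A replicate 3. Its step of 0.994 was taken as too close to 1 to count as recovered reads. Since 100% of its entries were multiples of that step too, leaving it out was a choice, and these tests had fewer shKMT5A libraries. The scripts were tested on simulated data. Exact tests used scipy 1.17.1 with Python 3.11.15. Alternatives were other pseudocounts, filters, scalings, a replicate block, other tests and leaving out each library. Members and gene lists were chosen with earlier results of these data known. Named were all members, KMT5A, list genes in the table, neighbours within 500 kb and the 3 genes most like PARP9 and PARP14. A gene of the interferon signalling list is not reported here and was left out of its counts.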

Additional observations from a re-analysis of the deposited data

How the results depend on the processing

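The members' directions were the same under all alternatives run, but the authors had selected these genes in the same libraries, so this is largely built in. Depth limits the list genes with few reads, such as QPRT and MACROD2, more than the members. Leaving out 1 library gave log2 fold changes of 3.11 to 3.21 for PARP9, 2.74 to 2.83 for PARP14, 2.43 to 2.49 for PARP8, 2.21 to 2.31 for DTX3L, 2.19 to 2.32 for PARP10, 1.70 to 1.82 for PARP12, 1.04 to 1.14 for PARP4, 0.997 to 1.17 for PARP11 and 1.48 to 1.62 for KMT5A, 1645 to 1653 higher and 1225 to 1228 lower genes, and a difference of 0.87 to 0.93 for the ratio of PARP9 to DTX3L. Other scalings shifted the table's median by -0.24 (equal medians), -0.59 (TMM) and -0.57 (totals). With edgeR and DESeq2, which also changed the test and left out shKMT5A replicate 3, it shifted by -0.62 and -1.02. Under each, 6 of 8 members lay above that median, as most genes called higher did in the main fit.

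With DESeq2 the log2 fold changes were 0.0086 for PARP4 and 0.067 for PARP11, 6 of 8 members passed and 786 genes were higher, against 1499 with edgeR. The higher partners and readers numbered 0 with TMM, totals, edgeR and DESeq2. With DESeq2 the genes of ADP-ribose removal numbered 0, the higher fibroblast and endothelial markers 1 and the higher colon markers 1. With a mean of at least 10 the higher leukocyte markers numbered 0 and the higher colon markers 1, because CD8A, MUC2 and CDH17 fell under that filter. Not divided by length, PARP14 was at place 3 in shNC and 1 in shKMT5A, DTX3L at 5 and 4, and PARP12 at 2 in shKMT5A. Apart from that filter and the division by length, the cause of these shifts was not tested.

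Deviations of same-numbered libraries correlated at -0.035, -0.038 and 0.00088 over genes, so no shared deviation was seen by replicate number. Such values, centred within groups of few libraries, cannot show whether libraries shared a culture or batch. With a replicate block the log2 fold changes were as without it (3.14 for PARP9) and 8 of 8 members passed.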

Other observations

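Genes of the table near members on other chromosomes moved both ways. Distances here too are between the lower coordinates of genes, whatever their strand. Of the 46 other protein-coding genes within 500 kb of PARP10, 4 were in the table. EPPK1 (568 ± 17.5 and 202 ± 43.1 normalized counts in shNC and shKMT5A), DGAT1 (926 ± 7.38 and 421 ± 34.3) and TONSL (2000 ± 135 and 892 ± 72.4) were lower, and WDR97 was higher (28.4 ± 6.15 and 58.4 ± 9.79; SD, n = 3 each). EPPK1 encodes epiplakin, DGAT1 an enzyme of triglyceride synthesis and TONSL a factor of replication-coupled repair. Near PARP12, 3 of 8 protein-coding genes were in the table: KDM7A, a histone demethylase (596 ± 39.0 and 1451 ± 162), and RAB19 (18.9 ± 6.12 and 46.5 ± 11.3) were higher, and DENND2A was lower (195 ± 3.83 and 55.2 ± 9.06). The table held 0 protein-coding genes within 500 kb of PARP8, PARP11 and PARP4. A pseudogene near PARP4, ANKRD20A19P, had 1.59 ± 1.98 and 15.5 ± 9.09 normalized counts.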
